A study of Oryza sativa with 12 samples.

Results

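The calcium sensor and calcium-dependent kinase genes of rice were taken as every gene whose symbol or synonym in the gene table, after a leading Os, is CIPK, CBL, CPK, CDPK or CML followed by digits. The table holds 89 such genes, and 74 of them were paired with 1 or more probe sets of their own, among 17905 genes measured in this way. They had 93 probe sets, and 15 genes had more than 1. These were 23 of 26 CML genes, 20 of 24 CPK genes, 24 of 30 CIPK genes and 7 of 9 CBL genes. CBL1, CBL7, CIPK3, CIPK9, CIPK13, CIPK15, CIPK27, CIPK33, CML2, CML21, CML22, CPK11, CPK14, CPK25 and CPK28 have no such probe set and were not analysed here.

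Calcium ions enter the cytosol of plant cells within a short time of chilling, and proteins with EF-hand calcium-binding loops read the signal. CML proteins resemble calmodulin and have no kinase activity of their own, so they act by binding other proteins. CPK (also CDPK) proteins carry the calcium sensor and the kinase on one chain. CBL proteins are sensors that bind and activate separate kinases, the CIPK proteins, which in turn act on ion transporters such as the sodium exchanger SOS1 and the potassium channel AKT1.

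Shoots and leaves of seedlings with 4 leaves (the 4-leaf stage) were the source of the RNA. In the cultivar ZH11, plants of the OsMYB30 overexpression lines OE2 and OE28 were set beside ZH11 itself as control, and in the cultivar Huayang, the osmyb30 homozygous mutants 1 and 2 were set beside the Huayang wild type. OsMYB30 encodes a MYB transcription factor. Each of these 6 lines was measured on 1 array before cold and on 1 array after 6 h at 4 °C, 12 arrays in all. The promoter of the overexpression construct, the kind of mutation and the number of plants per sample are not given in the sources used here. Each group held 2 arrays or 1, and p-values measure the spread between these arrays only. No line was sampled warm at 6 h, so cold and elapsed time cannot be told apart.

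Values below are probe set intensities as deposited. Changes are differences of quantile normalized log2(intensity + 16), a scale that understates the change of dim probe sets, each with its standard error (SE) from a limma fit over 34355 probe sets. Calls were made where the adjusted p (Benjamini-Hochberg) was below 0.05. Each gene was represented by its brightest probe set. Of the 74 genes, 67 passed a filter on mean intensity and were tested. CBL5, CIPK30, CML32, CPK2, CPK6, CPK21 and CPK29 did not pass.

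The array medians lay between 34.7 and 37.2. Marker probe sets for reporter and selection genes read up to 73.9 apart from 2 bright ones, and readings up to that limit are called dim. One of the bright ones, RPTR-Os-K01193-1_at, lay between 11860.8 and 12539.4 in OE2 and OE28 and between 13835.2 and 17781.9 in the mutants, and it read 2658.5 before cold and 3821.8 at 6 h in the arrays labelled Huayang wild type. In the ZH11 control it read 18.6 and 64.3. Of 4 leaf marker genes, 3 were above the dim limit on every array and RBCS1 was dim on all, with sums of 39061.6 to 39841.8 before cold and 38440.4 to 40624 at 6 h. Of 6 root marker genes, 3 were dim on all arrays and LSI1 and IRT1 were above the limit on all, with sums of 506.3 to 788.5 before cold and 353.9 to 495.3 at 6 h. Sums of 5 secondary wall genes were 7935 to 10005.8 before cold and 6295.4 to 8525.5 at 6 h, and those of 9 genes of dividing cells, 6 of them dim on all arrays, were 484.5 to 628.9 and 455.6 to 619.7. The part of tissue makeup in the results below was not tested, and in such bulk samples fewer cells of a type and less RNA per cell cannot be told apart.

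The first comparison set the arrays after cold beside those before it, over all lines (6 against 6, with cultivar as a term). Of the 67 genes tested, 15 rose and 19 fell, which is 50.7% called, against 35.1% of all probe sets tested (14.9% higher and 20.2% lower). The 67 enter by their brightest probe sets, while all probe sets include dimmer ones of the same genes and ones paired with no gene. Shares and median sizes here and below are thus of unlike sets. The largest rises went beyond the largest falls in size. A rise of at least 2-fold was seen in 10 genes on the fitted scale, where 1.82% of all probe sets rose so far, and a fall of at least 2-fold in 3 genes, where 0.961% did. The 15 rises were seen in 6 of 6 lines, and so were 18 of the 19 falls, all but that of CIPK21. The calls were made on these same lines, so their agreement is no separate test. The matching share among all called probe sets was not counted. With line as a block, which uses the pairing of each line's arrays, the 34 calls remained, and CIPK14, CIPK16 and CIPK23 were called higher and CIPK1, CIPK2, CML29 and CPK7 lower. That made 41 of the 67, where 45.9% of all probe sets were called with the block. Over the 67 genes the median change was -0.04, beside 0.01 over all probe sets, and the median size of change was 0.25, beside 0.13.

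**Figure D1:**
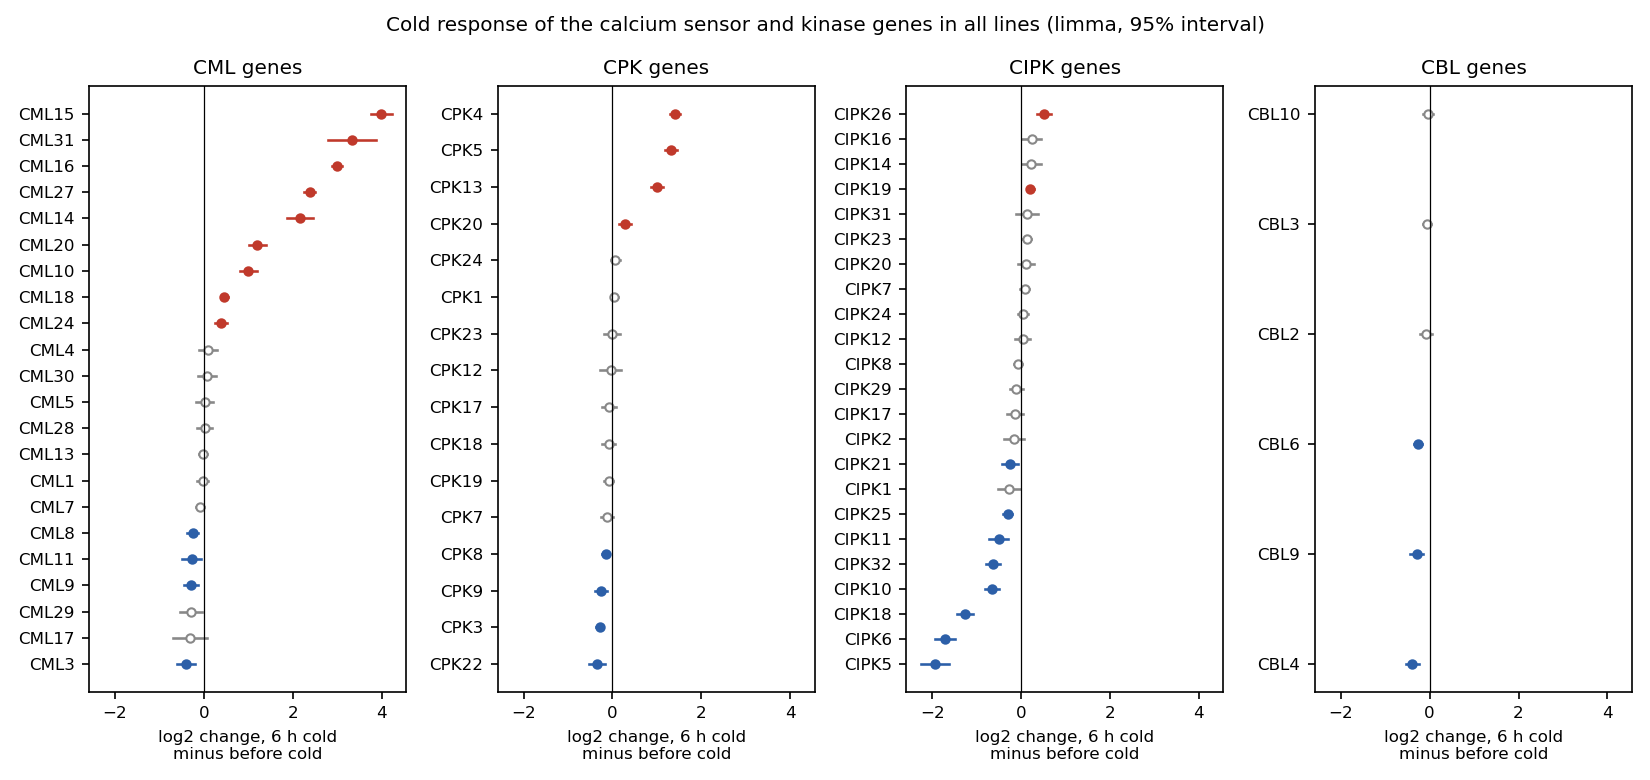
Change after cold of the 67 tested genes over all lines, as log2 change at 6 h minus before cold with its 95% interval from limma, in 1 panel per family. Red points rose, blue points fell and open points were not called; the long rises lie in the CML and CPK panels, and the long falls in the CIPK panel.

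The CML sensors held the largest rises. Of 22 tested, 9 rose and 4 fell, which is 59.1% called, where 35.1% of all probe sets were, 14.9% as higher and 20.2% as lower. On the fitted scale 7 of the rises reached 2-fold (CML15, CML31, CML16, CML27, CML14, CML20 and CML10), where 1.82% of all probe sets rose so far. The median change of the 22 was 0.04.

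CML15 read 223.4 to 402.5 before cold, with a median of 301.7, and 4323.8 to 5270 at 6 h, with a median of 5095.1. Every line was low before cold and high after it, and the groups did not overlap. The change was 3.99 (SE 0.11), or 15.9-fold, with an adjusted p of 1.23e-11 in limma, and single lines gave 3.44 to 4.46. CML31 read 185.4 to 978.5 before cold, with a median of 469.55, and 3840.1 to 5851.6 at 6 h, with a median of 4282.15. Its spread before cold was wide, and the 3 ZH11 arrays read 185.4 to 309.3 and the 3 Huayang arrays 629.8 to 978.5. The change was 3.33 (SE 0.25), with an adjusted p of 3.31e-07 in limma, and no array at 6 h read as low as any before cold.

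CML16 read 864.7 to 1238.5 before cold, with a median of 1042.85, and 7705.1 to 9434.2 at 6 h, with a median of 8151.35. Its change of 2.99 (SE 0.05, limma adjusted p = 7.59e-14) was the most even among the lines of the large rises, between 2.87 and 3.11. CML27 read 975.2 to 1137.5 before cold, with a median of 1089.95, and 4988.5 to 6017.9 at 6 h, with a median of 5674.75, a change of 2.38 (SE 0.06). The groups of both genes lay far apart. A second probe set of CML27 was dim on all arrays (22.4 to 71.7) and gave 0.47, also called.

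CML14 and CML20 were dim in every line before cold. CML14 read 48.6 to 71.4 before cold, with a median of 61.4, and 189.3 to 398.8 at 6 h, with a median of 333.25. The ZH11 control was the low line at both times, and the groups did not overlap. With dim readings set to the limit the rise was at least 3.62-fold (limma adjusted p = 4.89e-08). CML20 read 44.4 to 65.4 before cold and 104.2 to 192.5 at 6 h, a rise of at least 1.70-fold by the same bound (limma adjusted p = 2.75e-07). CML10 was bright throughout. It read 2751 to 4116.1 before cold, with a median of 3289.65, and 6236.7 to 6997 at 6 h, with a median of 6733, a change of 1.00 (SE 0.08). Smaller rises were those of CML18 at 0.46 (SE 0.04) and CML24 at 0.39 (SE 0.06). The readings of CML24 overlapped between the times, and the Huayang lines read higher than the ZH11 lines at both.

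**Figure D2:**
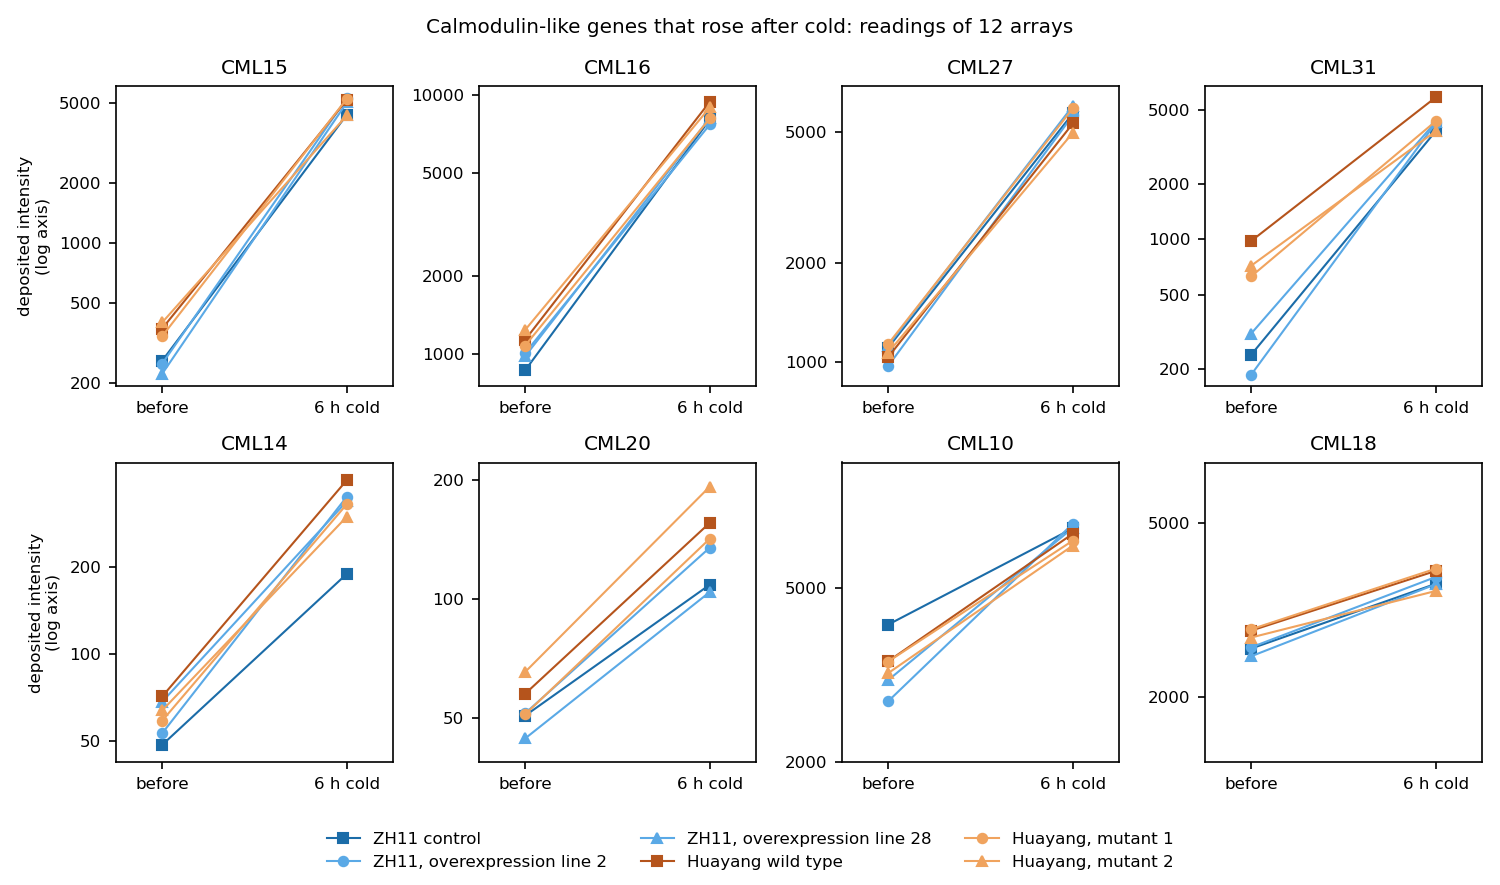
Deposited intensities on a log axis of 8 CML genes that rose after cold, before cold and at 6 h, with 1 line per plant line. Lines climb in every panel; the Huayang lines start above the ZH11 lines for CML31, and the ZH11 control lies below the other lines for CML14.

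The CML genes that fell did so by little. CML3 fell by 0.41 (SE 0.09), from 118.5 to 158.2 before cold to 70.3 to 113.8 at 6 h. CML9 changed by -0.29 (SE 0.07), CML11 by -0.28 (SE 0.10) and CML8 by -0.25 (SE 0.06). The fall of CML11 depended on single arrays. It lost its call when any 1 of 7 arrays was left out, with a limma adjusted p of up to 0.106 over all alternatives run. A second probe set of CML5, dim on all arrays, was called lower without an established size, while the brighter one gave 0.02. CML1, known in rice as the calmodulin-like protein OsCaM61, had a change of -0.03 (95% interval -0.15 to 0.10) and was not called.

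Among the CPK kinases 4 of 16 rose and 4 fell, with a median change of -0.06. That is 50% called, where 35.1% of all probe sets were, 14.9% as higher and 20.2% as lower. CPK4, linked to salt and drought tolerance in rice, read 430 to 487 before cold, with a median of 457.95, and 1121.2 to 1373.2 at 6 h, with a median of 1179. All 6 lines rose to well over the level before cold, by 1.41 (SE 0.06, limma adjusted p = 4.91e-10). CPK5 read 174.4 to 213.7 before cold, with a median of 196.15, and 412.5 to 526.9 at 6 h, with a median of 489.95. Its change was 1.31 (SE 0.06, limma adjusted p = 3.36e-09), with no overlap of the groups. Its probe set is of a kind (suffix s) that may also detect other transcripts.

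CPK13, listed with the synonym CDPK7 and linked to cold and salt tolerance when overexpressed in rice, read 1341.5 to 1621.9 before cold, with a median of 1498.45, and 2640.7 to 3244.2 at 6 h, with a median of 3055.45. The groups lay apart and the change was 1.01 (SE 0.06, limma adjusted p = 5.48e-08). Its second probe set, dim in every line before cold, gave 1.27 and was called as well. CPK20 rose by 0.28 (SE 0.07), with readings that overlapped between the times.

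The CPK genes that fell were CPK22 at -0.35 (SE 0.08), CPK3 at -0.29 (SE 0.04), CPK9 at -0.27 (SE 0.06) and CPK8 at -0.16 (SE 0.04). All but CPK22, which was dim on 11 of 12 arrays, were above the dim limit. The size of the fall of CPK22 is therefore not established. CPK17 and CPK24, kinases linked to cold responses in rice, were not called, at -0.07 (95% interval -0.23 to 0.08) and 0.07 (-0.04 to 0.17). CPK21 did not pass the filter. It read 10.7 to 14.7 before cold and 21.9 to 47.4 at 6 h, dim on every array.

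Of 6 CBL sensors tested, 3 fell and 0 rose, where 20.2% of all probe sets were called lower and 14.9% higher. So few calls do not establish a direction for the family. The other 3 (CBL2, CBL3 and CBL10) had values of -0.07 to -0.03 and were not called. CBL4, the counterpart of SOS3 in the SOS pathway of salt tolerance, read 244.9 to 288.1 before cold, with a median of 269.2, and 149.7 to 223.7 at 6 h, with a median of 187. The groups did not overlap, and the change was -0.38 (SE 0.07, limma adjusted p = 0.000731). CBL9 read 205.8 to 239.5 before cold and 142.8 to 170.9 at 6 h, a change of -0.29 (SE 0.07), and its probe sets (suffix x) may also detect other transcripts. CBL6 read 1442 to 1567.1 before cold and 1148.3 to 1286.5 at 6 h, and fell in every line, by 0.26 (SE 0.04).

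Of 23 CIPK kinases tested, 8 fell and 2 rose, with a median change of -0.11. That is 43.5% called, where 35.1% of all probe sets were, 20.2% as lower and 14.9% as higher. CIPK5 read 722.1 to 1151.1 before cold, with a median of 976.6, and 130.6 to 313 at 6 h, with a median of 242.6. It was the largest fall among all 67 genes, at -1.94 (SE 0.14, limma adjusted p = 3.15e-07), and lines ranged from -2.30 in the ZH11 control to -1.80 in mutant 1. CIPK6 read 261.5 to 406.4 before cold, with a median of 390.6, and 58.9 to 116.8 at 6 h, with a median of 99.25. Only the Huayang wild type array at 6 h was dim. The change was -1.71 (SE 0.11, limma adjusted p = 4.95e-08).

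CIPK18, also listed as CIPK22, read 962.9 to 1355.7 before cold, with a median of 1100.8, and 346 to 548 at 6 h, with a median of 453.4. Every line fell by more than a unit of log2, and the change was -1.26 (SE 0.08, limma adjusted p = 7.39e-08). CIPK10 fell by 0.65 (SE 0.07), from 903.9 to 1384.1 before cold to 511.7 to 786 at 6 h. Of its other probe sets 2 were called, at -0.64 and -0.40, and another gave -0.08 and was not. CIPK32 fell by 0.64 (SE 0.07), from 1182.8 to 1351.2 before cold to 638.2 to 899.5 at 6 h. CIPK32 and CML3 neighbour each other in the gene table, and their probe sets carry the same cluster number, so the signals of both are reported as uncertain.

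CIPK11 changed by -0.50 (SE 0.10) and CIPK25 by -0.30 (SE 0.05). At 6 h CIPK11 was dim in 3 of 6 lines, and with dim readings set to the limit its fall was at least 1.39-fold. The CIPK11 probe set (suffix s) may also detect other transcripts. CIPK21 was dim on all arrays and was called lower without an established size, was lower in 5 of 6 lines and lost its call in 10 of 22 alternatives. CIPK26 rose by 0.52 (SE 0.07), from 92.6 to 127.1 before cold to 135.7 to 166.4 at 6 h, and CIPK19 by 0.21 (SE 0.04). CIPK24, the counterpart of SOS2, and CIPK23, which acts with CBL1 on AKT1, were not called, at 0.04 (95% interval -0.08 to 0.15) and 0.12 (0.02 to 0.23). CIPK23 passed with line as a block (limma adjusted p = 0.0345), but its second probe set gave -0.25.

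For CIPK7, in which a rice mutant with higher chilling tolerance is known, the 2 probe sets parted. The brighter read 2265 to 2772.4 before cold and 2480 to 2847.5 at 6 h, a change of 0.08 (SE 0.05) that was not called. The other read 1167.9 to 1549.8 before cold and 3337.1 to 4097.7 at 6 h, a change of 1.58 (SE 0.08, limma adjusted p = 5.05e-09) that was seen in 6 of 6 lines. CIPK7 is counted above as not called. For CIPK2 the brightest probe set, of the kind with suffix x, gave -0.16 and was called with line as a block only (limma adjusted p = 0.0361), while another gave 0.37 and was called. The remaining CIPK2 probe set rose in 5 of 6 lines, with single lines from -0.09 to 0.50, so the direction of CIPK2 is uncertain.

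**Figure D3:**
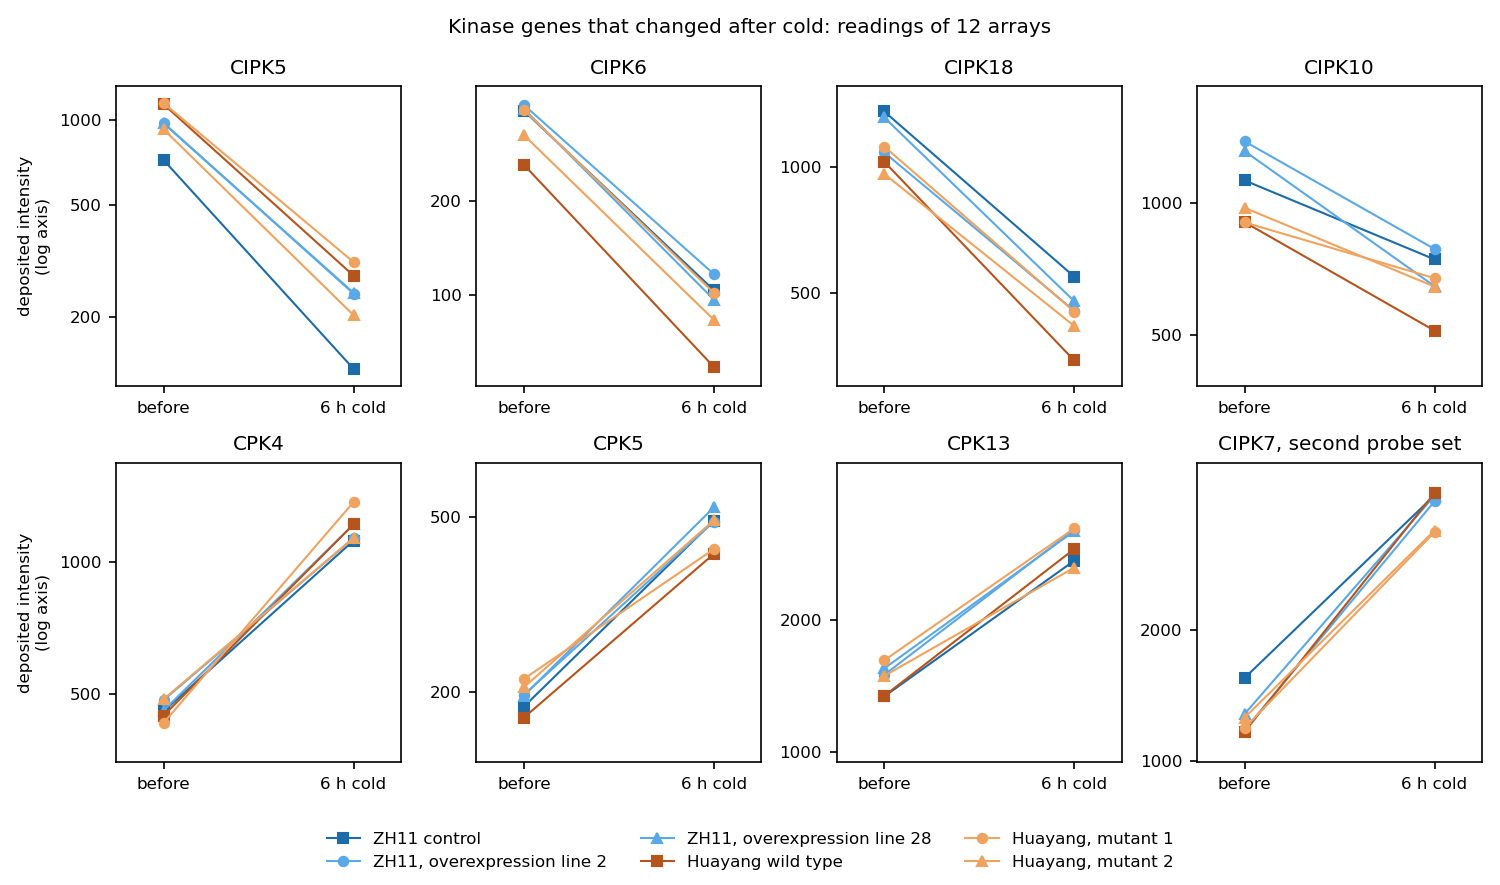
Deposited intensities on a log axis of 7 kinase genes that changed after cold and of the second probe set of CIPK7, before cold and at 6 h, with 1 line per plant line. CIPK5, CIPK6, CIPK18 and CIPK10 fall in every line, and CPK4, CPK5, CPK13 and the CIPK7 probe set rise in every line.

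The next comparison took the cold response within each cultivar (3 arrays against 3). In ZH11 lines 15 of the 67 genes rose and 16 fell, where 20.0% of all probe sets were called (7.46% higher and 12.6% lower). In Huayang lines 14 rose and 13 fell, where 19.3% were (7.25% higher, the rest lower). Values of the named genes in both cultivars stand side by side here. CML15 changed by 4.27 (limma adjusted p = 8.16e-11) in ZH11 lines and by 3.72 (3.87e-10) in Huayang lines. CIPK5 changed by -1.98 (3.38e-05) and -1.90 (5.02e-05), and CIPK6 by -1.67 (9.78e-06) and -1.76 (6.72e-06). CML16 changed by 3.04 and 2.95, CML27 by 2.43 and 2.33, CPK4 by 1.34 and 1.48, and CPK13 by 1.04 and 0.97.

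In the test of the difference between the 2 responses, limma called 0 of the 67 genes, where 0.102% of all probe sets were called. An unadjusted p below 0.05 was found for 5 of the 67 (7.46%) and for 4.73% of all probe sets. CML31 had the largest difference. The ZH11 arrays before cold read 185.4 in OE2, 309.3 in OE28 and 237.7 in the control, and at 6 h 4251.5, 4312.8 and 3842.5. The Huayang arrays before cold read 629.8 in mutant 1, 719.4 in mutant 2 and 978.5 in the wild type, and at 6 h 4349.2, 3840.1 and 5851.6. So the cultivars lay apart before cold, and their ranges overlapped at 6 h. The change was 4.06 in ZH11 lines and 2.61 in Huayang lines, a difference of 1.46 (95% interval 0.80 to 2.11) with an adjusted p of 0.168 in limma. With line as a block that adjusted p was 0.0114, where 0.576% of all probe sets were called. CML17 had the next largest difference, at -0.66. Only its OE2 array before cold was above the dim limit, so its size is not established.

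The cultivars were also compared at the mean of both times (ZH11 lines minus Huayang lines, 6 arrays against 6). Of the 67 genes, 5 were higher and 14 lower in ZH11 lines, where 16.6% of all probe sets were called, 7.86% higher and 8.72% lower. Median centring of the arrays gave a split of 2 and 14. Each cultivar mean mixes genotypes, and cultivar cannot be told apart from any batch that went with it. CML genes made up 8 of the 14 lower ones and 0 of the 5 higher ones.

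CML4, linked to drought tolerance in rice, read 668.7 to 824.6 in ZH11 lines, with a median of 715.75, and 1032.7 to 1551.9 in Huayang lines, with a median of 1308.55. The cultivars did not overlap at either time, and the gene was not called after cold. The difference was -0.83 (SE 0.09, limma adjusted p = 6.69e-05), and a second probe set gave -0.88. CML31 differed by -0.89 (SE 0.15, limma adjusted p = 0.00153), with the ranges before cold given above and with overlap at 6 h. CML29 read 170 to 323.9 in ZH11 lines and 255.4 to 435.1 in Huayang lines over both times, with a difference of -0.66 (SE 0.11). These ranges overlapped, but on the normalized log2 scale the cultivars did not overlap at either time. Before cold the ZH11 lines lay at 8.06 to 8.285 and the Huayang lines at 8.663 to 8.743. At 6 h they lay at 7.626 to 7.816 and 8.102 to 8.817. CPK18, a kinase that phosphorylates the MAP kinase MPK5 in rice, read 140 to 204 in ZH11 lines and 217.4 to 268.7 in Huayang lines. Its groups did not overlap, and it differed by -0.49 (SE 0.05). Its probe set (suffix s) may also detect other transcripts.

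Lower in ZH11 lines by smaller amounts were CML24 at -0.41, CML20 at -0.30, CBL2 at -0.30, CML15 at -0.30, CIPK24 at -0.28 and CPK9 at -0.26, and CML8, CPK8, CML16 and CBL10 followed at -0.23 to -0.19. The genes higher in ZH11 lines were CIPK10 at 0.37 (SE 0.06), whose other called probe sets gave 0.36 and 0.30, CPK3 at 0.30 (SE 0.04), CIPK18 at 0.29, CIPK17 at 0.27 and CIPK8 at 0.24. With line as a block 12 of the 19 kept their call, 3 higher and 9 lower, where 3790 of the 34355 probe sets were called, against 5696 without the block. CBL10, CIPK17, CIPK18, CML8, CML15, CML20 and CPK9 did not. Without the Huayang wild type line 12 members were called, and 3778 of all probe sets.

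**Figure D4:**
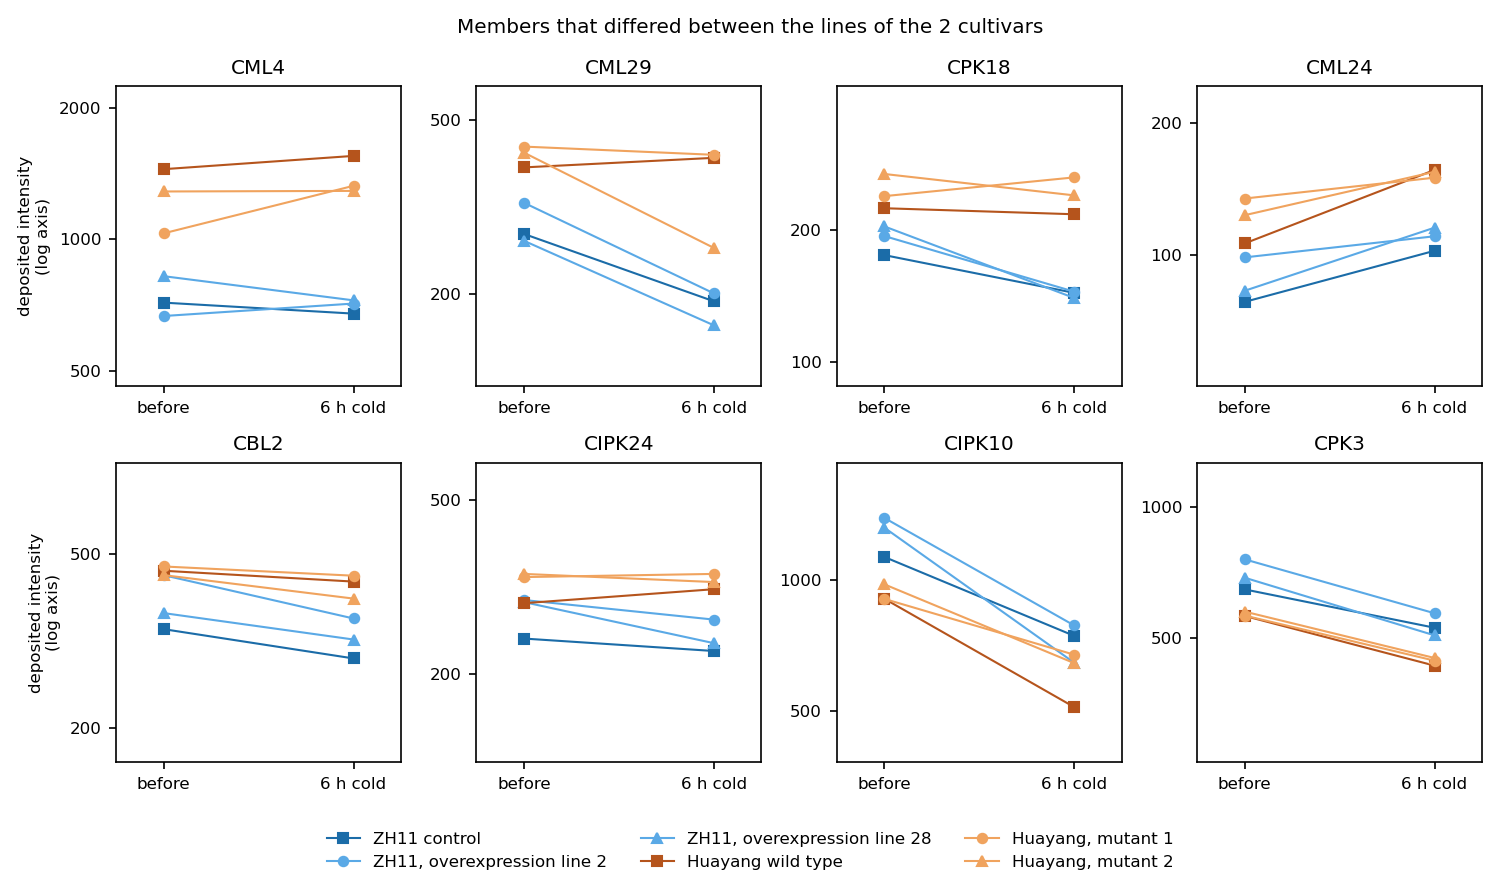
Deposited intensities on a log axis of 8 genes that differed between the lines of the 2 cultivars, before cold and at 6 h, with 1 line per plant line. Huayang lines (orange shades) lie above ZH11 lines (blue shades) at both times for CML4, CPK18 and CML24, and below them for CPK3.

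OE2 and OE28 were next set against the ZH11 control, which asks what differs when OsMYB30 is overexpressed. The control was 1 line with 1 array per time, and it lacked the bright signal of RPTR-Os-K01193-1_at. Overexpression therefore cannot be told apart from carrying a construct or from other traits of that line. The transcript of OsMYB30 was not analysed here, since the annotation pairs no probe set with it. Before cold (2 arrays against 1), 1 of the 67 genes was called, where 0.571% of all probe sets were and 0.186% were called lower. CML10 read 2751 in OE2 and 3074.9 in OE28, and 4116.1 in the ZH11 control. The control array lay above both overexpression arrays and above the 3 Huayang arrays, at 3189.2 to 3395.3. The difference was -0.56 (SE 0.08, limma adjusted p = 0.0351), and its call was lost when either OE2 array, the OE28 array at 6 h or either mutant array before cold was left out. At 6 h CML10 read 6997, 6843.5 and 6828.5 in the same order, a difference of 0.05.

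At 6 h 0 of the 67 genes were called by limma, where 0.311% of all probe sets were. An unadjusted p below 0.05 was found for 5 of the 67 (7.46%) and for 10.1% of all probe sets. CIPK5 read 241.8 in OE2, 243.4 in OE28 and 130.6 in the control. The control was the lowest of the 6 lines, and the difference of 0.80 (SE 0.21) had an adjusted p of 0.253 in limma. CML14 read 349.7 and 337 in the overexpression lines and 189.3 in the control, which was again the lowest of the 6 lines. Its difference of 0.76 (SE 0.13) had an adjusted p of 0.0816 in limma. In the other direction CPK12, a kinase linked to salt tolerance in rice, read 76.6, 67.2 and 114.2, with the control the highest of the 6 lines. The difference was -0.62 (SE 0.12), its adjusted p in limma was 0.113, and its probe set (suffix s) may also detect other transcripts.

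Averaged over both times (4 arrays against 2), 2 genes were higher in the overexpression lines and 0 lower, where 4.06% of all probe sets were called, 2.17% as higher. CML14 differed by 0.51 (SE 0.09, limma adjusted p = 0.0316), and before cold its readings of 53.3 in OE2, 68.5 in OE28 and 48.6 in the control were all dim. CIPK14, a kinase known from defence signalling in rice cells, read 2142.8 in OE2, 2349 in OE28 and 1398.2 in the control before cold, and 2128.7, 2616.2 and 2019.3 at 6 h. Both overexpression lines lay above the control at each time and above the 6 Huayang arrays, which read 1379.7 to 1884. The difference was 0.41 (SE 0.09, limma adjusted p = 0.0432). Neither call held with line as a block, which called 1.24% of all probe sets, and there the adjusted p was 0.0804 for CML14 and 0.0799 for CIPK14. Each call was also lost without the OE28 array at 6 h and without either mutant array before cold, that of CML14 without the OE2 array at 6 h, and that of CIPK14 without the OE2 or the OE28 array before cold.

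CIPK6 and CML15 did not differ by an amount that passed, at -0.05 (95% interval -0.31 to 0.21) and -0.02 (-0.24 to 0.21) for the mean of both times. CIPK5 gave 0.56 (0.21 to 0.91, limma adjusted p = 0.0766). In the test of whether overexpression changed the cold response limma called 0 genes, as it did among all probe sets (0%), and 4 of the 67 (5.97%) had an unadjusted p below 0.05, beside 4.08% of all probe sets. The largest values were -0.72 (SE 0.17) for CPK12 and 0.61 (SE 0.12) for CML10.

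**Figure D5:**
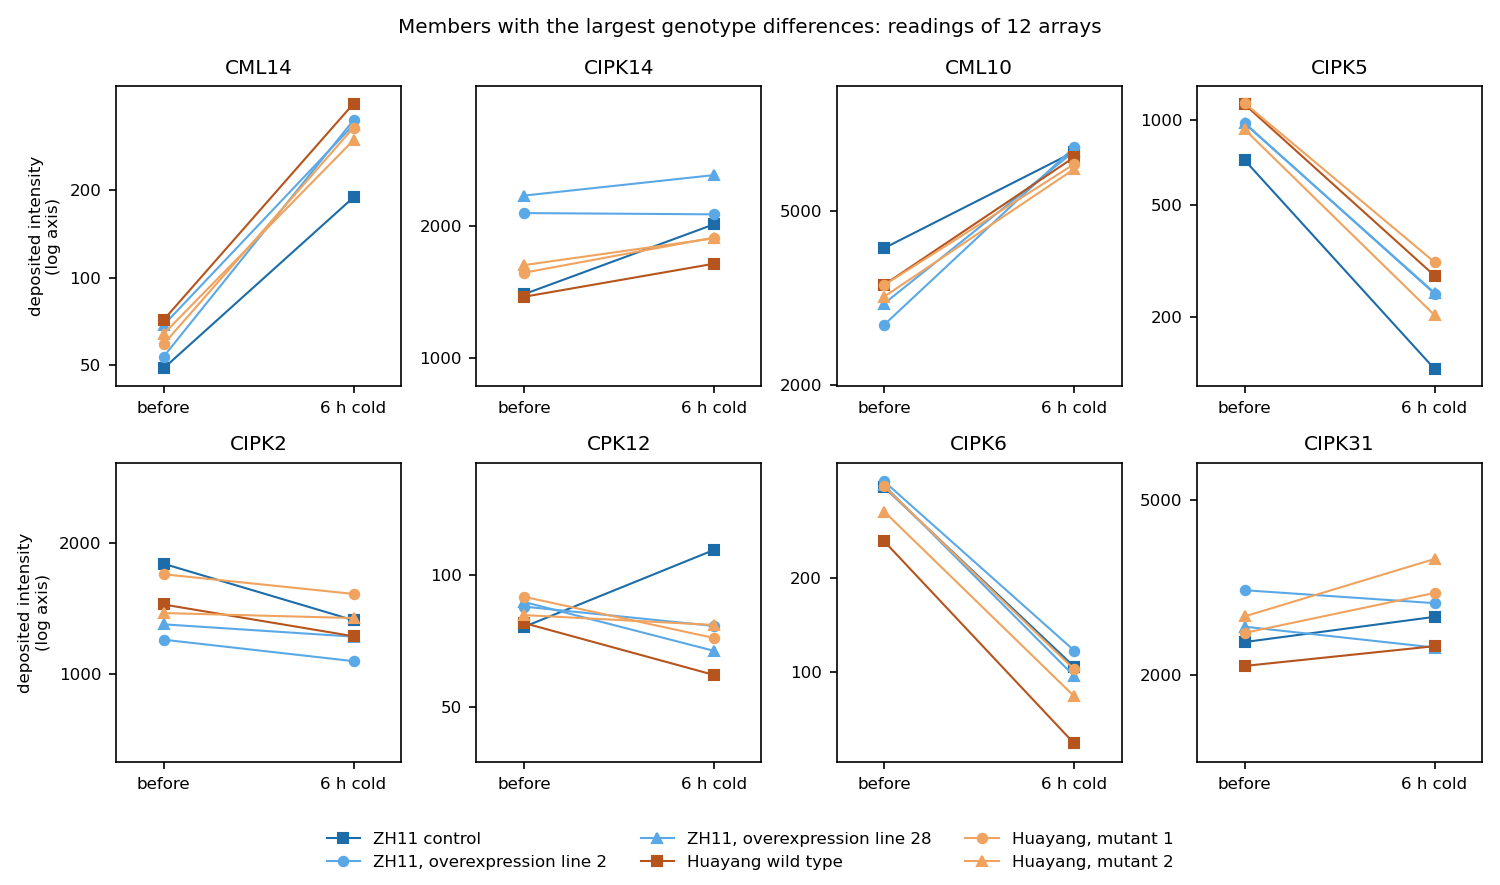
Deposited intensities on a log axis of CML14, CIPK14, CML10, CIPK5, CIPK2, CPK12, CIPK6 and CIPK31, before cold and at 6 h, with 1 line per plant line. CML31, which had the largest difference between mutants and wild type, is not shown. The ZH11 control (dark blue squares) lies apart from the other 5 lines at 6 h for CML14 and CIPK5, and before cold for CML10. The Huayang wild type (dark orange squares) lies lowest for CIPK6.

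The osmyb30 mutants were compared with the Huayang wild type. Limma called 0 of the 67 genes before cold, at 6 h, as a mean of both times and in the interaction with cold, where it called 0.00291%, 0.0204%, 0.0262% and 0% of all probe sets. At an unadjusted p below 0.05 there were 2, 8, 7 and 0 genes (2.99%, 11.9%, 10.4% and 0%), beside 5.05%, 9.52%, 12.5% and 2.93% of all probe sets. The wild type had 1 array per time, and a p that misses the threshold does not show that values did not differ. The marker probe set that read bright in the mutants and the overexpression lines also read above the dim limit in the wild type arrays, and the part of this in the comparison was not tested.

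The values of CML31 lay lower in the mutants, at 629.8 and 719.4 before cold against 978.5, and at 4349.2 and 3840.1 at 6 h against 5851.6. The wild type was the highest of all 6 lines at both times. As a mean of both times the difference was -0.57 (95% interval -0.98 to -0.16, limma adjusted p = 0.312). CIPK6 read 391.7 in mutant 1, 325.5 in mutant 2 and 261.5 in the wild type before cold, and 101.7, 83.4 and 58.9 at 6 h. The wild type was the lowest of the 6 lines at both times, with a difference of 0.44 (0.18 to 0.69, limma adjusted p = 0.276). CIPK5 and CML15 gave -0.20 (-0.55 to 0.14) and -0.12 (-0.34 to 0.11). Before cold CML4 had the largest difference after CML31. On the normalized log2 scale it lay at 9.988 and 10.313 in the mutants and 10.523 in the wild type. In the interaction the largest values were -0.44 (SE 0.33) for CML29 and -0.36 (SE 0.17) for CML28, which was dim on all arrays, so that its size is not established.

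Other genes of calcium signalling were read beside the sensors and kinases, as a list of calmodulins, channels, pumps, exchangers, NADPH oxidases and kinase targets chosen with earlier results of these data known. Of 20 such genes 17 had a probe set, and over all lines 2 rose and 5 fell after cold, which is 41.2% called, beside 35.1% of all probe sets. ACA7, a calcium pump of the autoinhibited type, read 45.3 to 170.4 before cold, with a median of 78.05, and 559.7 to 686.8 at 6 h, with a median of 597.85. The groups did not overlap, and with dim readings set to the limit the rise was at least 5.24-fold (limma adjusted p = 1.58e-07). The pump gene ACA1 was dim on every array and was called higher without an established size. CCAMK, a calcium- and calmodulin-dependent kinase known from root symbiosis, fell by 0.42 (SE 0.05), while a second probe set, dim on all arrays, was called higher without an established size. AKT1, the potassium channel that CIPK23 acts on, changed by -0.34 (SE 0.08), and its probe set (suffix x) may also detect other transcripts. The exchanger gene CAX1b was dim on every array and was called lower without an established size. Averaged over the times, limma called 0 of the 17 in the overexpression lines, and 6 (35.3%) had an unadjusted p below 0.05, beside 24.8% of all probe sets.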

How the data were processed

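Biotin-labelled RNA of 12 samples was hybridised to GeneChip arrays, 1 each. The deposited values are linear intensity readings, 1 per probe set, from 2.9 to 23434.8. The method of summary and normalization is not given in the sources used here. Precision is limited by the number of arrays.

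Of 57381 probe sets, 123 controls were left out. By the platform annotation 22436 probe sets had 1 gene, 95 several and 34850 none. Names and neighbours came from a RefSeq gene table (assembly ASM3414082v1). Intensities were taken as log2(value + 16) and quantile normalized, since quartiles of the arrays lay up to 0.24 apart, and the 34355 probe sets whose mean reached the 40th percentile were tested. The fits used limma 3.58.1 in R 4.3.3 (lmFit, eBayes with trend), with Benjamini-Hochberg adjustment over all probe sets kept. Genotype contrasts came from 8 group means with 4 residual degrees of freedom, where a single control array is taken to vary as the other groups do. Cold and cultivar contrasts came from cultivar and time.

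Each line was sampled at both times, which pairs its arrays. The 2 deviations of a line from its group means correlated, at 0.517 for overexpression lines and 0.429 for mutants. With line as a block, the cold contrasts and the interaction of cold and cultivar took line as a fixed term. Genotype contrasts took it as a random block with a correlation of 0.334. The cultivar contrast also took it as a random block, with a correlation estimated from its own fit. The limit of 73.9 for dim readings was chosen after seeing the data. Members and lists were chosen with earlier results of these data known. Named are CIPK5, CIPK6 and CML15, and for cold the 5 largest called changes each way per family. Elsewhere named are the 10 largest each way, the 2 largest values where none passed, and the 3 largest called partners each way. For cold within each cultivar only some of these are given with values. Genes outside this rule were named for their known role or their probe sets, after their values were seen.

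Alternatives were other scaling, filters and pseudocounts, averaged probe sets, eBayes without trend, line as a block, other models of cold, arrays left out in turn and, added after seeing the data, no Huayang wild type line. The fits were run on simulated data whose errors were independent between arrays. Those data held no pairing of a line's arrays, so they cannot show how the fits behave with it.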

Additional observations from a re-analysis of the deposited data

Results flagged for a closer look

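The difference between the cold responses of CML31 in ZH11 and Huayang lines, 1.458 on the log2 scale, passed the test of the interaction with line as a block (limma adjusted p = 0.0114) and not without it (0.168). The arrays before cold read 185.4 to 309.3 in ZH11 lines and 629.8 to 978.5 in Huayang lines.

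A marker probe set outside the comparisons, RPTR-Os-K01193-1_at, read 2658.5 before cold and 3821.8 at 6 h in the arrays labelled Huayang wild type, while it read 18.6 and 64.3 in the ZH11 control and 11860.8 to 17781.9 in the overexpression lines and mutants. Groups held 1 or 2 arrays, so no search for single outlying arrays within a group was possible.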

How the results depend on the processing

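Of 273 alternative counts of called genes, 250 were equal to the count reported or lay within 1.5 times it. Many of these set 0 beside 0, as in all mutant comparisons, and so say little about stability. Among the named genes and contrasts that were rerun, no called value changed direction. For the overexpression mean of both times, where 2 genes were called, the count was 4 with the 60th percentile filter, 4 with median centring, 1 with no filter, 1 without trend, 0 with line as a replicate block and 0 to 3 with single arrays left out. For overexpression before cold, where 1 was called, it was 2 on the values as deposited, 2 with median centring (where the median over all probe sets became 0.10), 0 without trend, 0 with averaged probe sets and 0 to 2 with single arrays left out. The cultivar count of 19 was 12 with line as a block, 12 without the Huayang wild type line and 14 to 21 with single arrays left out. The interaction of cold and cultivar had 0 calls, and 1 with line as a block. With single arrays left out the cold counts were 32 to 37 in all lines, 24 to 31 in ZH11 lines and 22 to 29 in Huayang lines, and 18 in Huayang lines without the wild type line. The other genotype counts were 0 in these runs. The causes were not tested, apart from the fewer arrays or probe sets of some fits. Of 3592 alternative values of named genes and contrasts, 3429 kept their side of the threshold, 148 lost a call and 15 gained one, with no change of direction of a call. Changes of sign between values that were not called were not counted. For cold within 1 cultivar the block added calls, to 38 in ZH11 lines and 38 in Huayang lines, while the share over all probe sets went from 20.0% to 33.8% and from 19.3% to 30.9%. For cultivar the calmodulin gene CAM1 (-0.18) also lost its call with the block (limma adjusted p = 0.0882). Dim readings limit the sizes of genes that include CML14, CML17, CML20, CML28, CPK22, CIPK11, CIPK21, ACA7 and CAX1b.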
